A study of Homo sapiens with 6 samples.

Results

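The p53 response was followed through 9 of its best known target genes, MDM2, CDKN1A, BAX, BBC3, FAS, RRM2B, POLH, RPS27L and SESN1, in a human germ cell tumour line after knockdown of VAMP7. Every probe set of a 3' expression array whose platform annotation names one of these genes was taken, which gave 30 of the 54613 probe sets tested, for 9 of 19775 genes. Of the 30, 29 name 1 gene, and the single probe set for BBC3 also names the microRNA genes MIR3190 and MIR3191. The genes are established p53 targets and were listed with earlier results of these arrays known.

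The cells were NTERA2/D1, an established line from a testicular teratocarcinoma with the features of embryonal carcinoma, in both groups. In the Vamp7 siRNA group (3 arrays) they received siRNA against human VAMP7, and in the scrambled siRNA group (3 arrays) a nonspecific siRNA. Transfection began 24 h after plating and lasted 72 h, with no other agent named. The labels give neither the siRNA sequences nor the number of duplexes. The labels call the replicates biological without saying whether they were separate cultures or days, so each p-value rests on an array-to-array spread that may be technical. Replicate numbers follow the sample titles, since the descriptions number all 3 Vamp7 siRNA samples as replicate 1.

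p53 is a transcription factor that MDM2, a ubiquitin ligase, keeps low by marking it for the proteasome. When DNA is damaged or ribosome assembly fails, p53 escapes MDM2 and raises genes that halt the cell cycle, repair DNA or start apoptosis, and MDM2 itself is among them, which closes a feedback loop. Germ cell tumours usually keep an intact p53 and are known for their sensitivity to DNA-damaging drugs. The mRNA levels of the targets are a readout of that pathway. They are measured here with no damaging agent named and with the mRNA of VAMP7 lowered. VAMP7 is a SNARE protein that drives fusion of endosomal and lysosomal vesicles, and its protein level was not measured.

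VAMP7 was far lower in the knockdown. Its 1 probe set read 136.8, 175.4 and 148.6 intensity units on the Vamp7 siRNA arrays, against 2487, 2617 and 2741 on the scrambled arrays, which left 5.87% of the scrambled signal (log2 difference -3.71, SE 0.11, adjusted p = 0.000362). It was the 1 probe set of the array past the adjusted threshold of 0.05. All differences below are Vamp7 siRNA minus scrambled siRNA on the log2(intensity + 50) scale, tested with limma and adjusted by Benjamini-Hochberg over the 54613 probe sets. In RNA of whole cultures, fewer cells expressing a gene and less RNA per cell cannot be told apart. The offset of 50 understates changes of dim probe sets. The brightness of a probe set also reflects how well its probes bind, so levels are compared between arrays and not between genes. Median intensity of the arrays ran from 64.06 to 67.39 in the Vamp7 siRNA group and from 58.71 to 64.94 in the scrambled group. Vamp7 siRNA replicate 1 stood apart, with a score of -59.4 on the first principal component (27.2% of the variance) against 4.76 to 21.5 for the other 5 arrays.

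Of the 30 probe sets of the p53 targets, 0 passed the adjusted threshold, where 0.00183% of all probe sets did. Their differences ran from -0.34 to 0.46 with a median of 0.01, beside a median of 0.02 over all probe sets. There were 16 above 0 and 14 below 0, while 53.8% of all probe sets lay above 0 and 46.2% below. At an unadjusted p under 0.05 there were 2 (6.67%), both lower, where 6.62% of all probe sets lay (4.13% higher and 2.48% lower). These 2 were FAS 233820_at and POLH 233852_at. With an offset of 1 or 16 in place of 50 there were also 2, 1 lower and 1 higher, since POLH 233852_at was not among them (adjusted p = 0.888 and 0.826 in limma) and the dim MDM2 probe set 237891_at was (adjusted p = 0.492 and 0.821). The groups did not overlap for 5 (16.7%), 2 higher and 3 lower, beside 12.4% of all probe sets (7.28% higher and 5.15% lower). Neither share stood far from that of the whole array. Standard errors of the 30 ran from 0.09 to 0.33. Apart from FAS 233820_at and POLH 233852_at, the 95% intervals hold changes in both directions. Some also hold large ones, up to 1.00 for MDM2 217373_x_at and down to -0.81 for POLH 1557700_at.

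**Figure D1:**
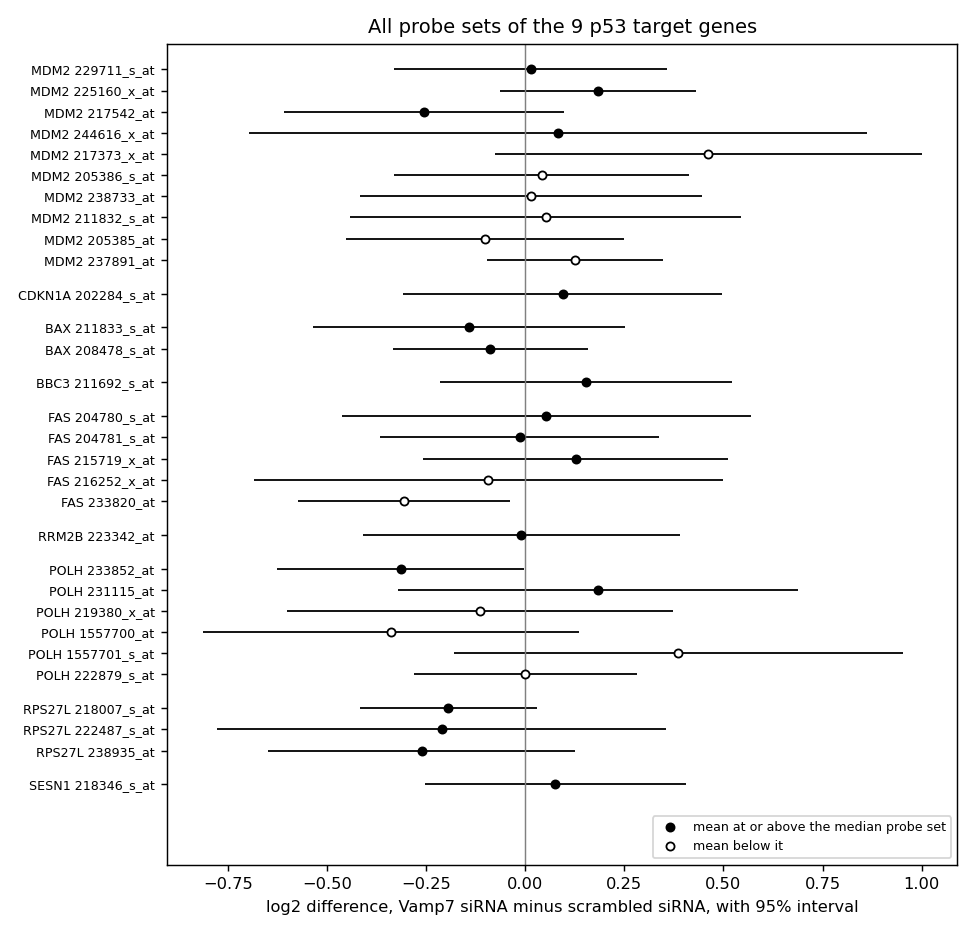
Log2 difference (Vamp7 siRNA minus scrambled siRNA, horizontal axis) of each of the 30 probe sets of the 9 genes, with 95% intervals from limma. Filled points have a mean over the 6 arrays at or above that of the median probe set and open points lie below it. Points fall on both sides of 0, and the intervals of 2 probe sets, 1 of FAS and 1 of POLH, leave 0 out before adjustment.

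The genes' baseline signal was set against that of the whole array, without a detection call. The mean of the median probe set over the 6 arrays was 60.5 intensity units, and 18 of the 30 probe sets lay at or above it, at least 1 for each gene. The brightest probe set of each gene lay above its array's median on all 6 arrays, which does not by itself show expression. Single arrays gave 87.1 for CD3E and 122 for ITGAM, leukocyte genes, close to the 82.1 to 149 of POLH. The other 12 probe sets lay below that mean. They are 6 of the 10 MDM2 probe sets, 4 of the 6 POLH probe sets and 2 of the 5 FAS probe sets.

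**Figure D2:**
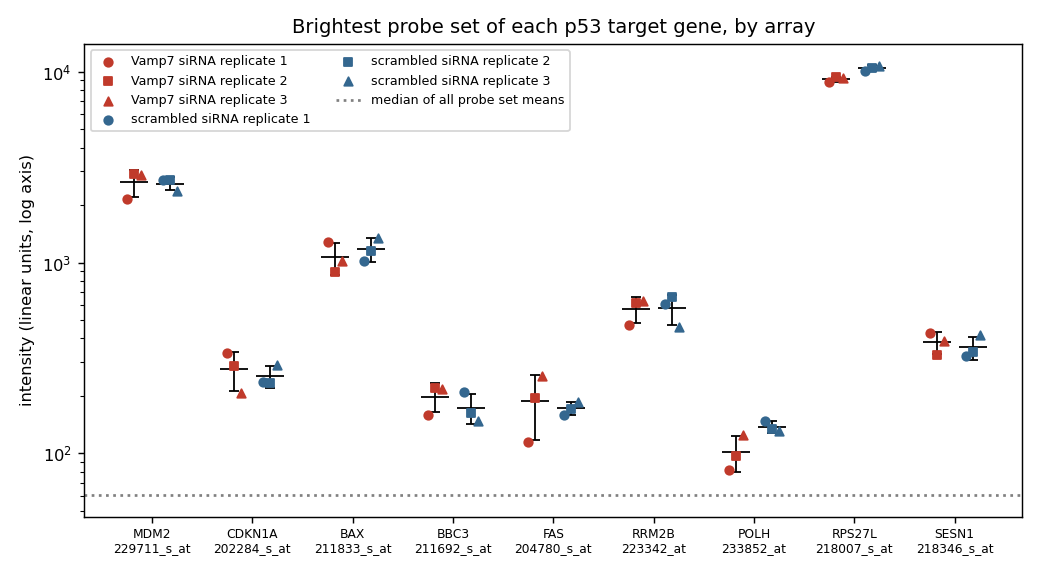
Intensity (linear units on a log axis) of the brightest probe set of each gene on every array, Vamp7 siRNA in red to the left of scrambled siRNA in blue, with the mean and SD of 3 arrays in black. The groups overlap for 7 of the 9 genes and stand apart for POLH and RPS27L, and all points lie above the dotted line at 60.5.

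p53 binds a pair of adjoining 10-base half-sites, and RefSeq promoter windows (GRCh38.p14) of the genes were searched for that pair. The table gave 15 windows of 300 bases, from 250 before to 50 after a transcript start, for 8 of the 9 genes. RRM2B had no entry. The p53 response element was searched without a spacer between the half-sites and with up to 3 mismatches over its 20 letters. The motif is its own reverse complement, so both strands were covered. It was found in 5 of the 15 windows (33.3%), against 5.2% of the 35116 windows in the table. The limit of 3 was set after a search without mismatches had found it in 0 of the 15. With up to 2 mismatches it was found in 3 of the 15 (20%), of MDM2 and FAS, against 0.649% of all windows. MDM2 held it in 2 overlapping windows at its inner start, and FAS, RPS27L and SESN1 in 1 each. The 2 MDM2 windows hold the same matches, so these enter the shares more than once. The genes were listed as established p53 targets, so their larger share is no test. The windows of CDKN1A, BAX, BBC3 and POLH held no such match. Several of these genes are known from other work to carry their p53 sites farther from the start, and a match is a description of the letters. One window of each gene with a match is shown, since they lie next to a start of these target genes, with the matching letters in capitals.
MDM2 (chr12:68808767-68809066, plus strand): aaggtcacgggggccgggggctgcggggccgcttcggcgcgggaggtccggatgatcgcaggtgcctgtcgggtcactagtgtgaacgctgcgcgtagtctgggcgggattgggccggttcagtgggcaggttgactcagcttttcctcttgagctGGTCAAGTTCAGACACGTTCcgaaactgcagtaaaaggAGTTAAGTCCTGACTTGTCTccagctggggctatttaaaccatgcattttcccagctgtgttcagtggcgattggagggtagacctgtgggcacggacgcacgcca
FAS (chr10:88991181-88991480, plus strand): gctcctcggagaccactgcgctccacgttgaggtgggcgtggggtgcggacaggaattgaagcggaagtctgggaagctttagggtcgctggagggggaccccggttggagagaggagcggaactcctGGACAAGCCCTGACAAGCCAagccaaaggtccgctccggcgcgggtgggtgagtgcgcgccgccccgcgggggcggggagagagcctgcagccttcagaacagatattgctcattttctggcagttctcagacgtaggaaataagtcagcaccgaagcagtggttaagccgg
RPS27L (chr15:63157428-63157727, minus strand): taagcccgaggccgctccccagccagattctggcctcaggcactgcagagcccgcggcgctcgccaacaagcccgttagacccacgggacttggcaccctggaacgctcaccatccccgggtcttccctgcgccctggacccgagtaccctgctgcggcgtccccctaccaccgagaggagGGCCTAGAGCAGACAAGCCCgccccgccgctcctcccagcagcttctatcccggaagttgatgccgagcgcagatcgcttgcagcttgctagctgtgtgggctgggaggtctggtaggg
SESN1 (chr6:109008939-109009238, minus strand): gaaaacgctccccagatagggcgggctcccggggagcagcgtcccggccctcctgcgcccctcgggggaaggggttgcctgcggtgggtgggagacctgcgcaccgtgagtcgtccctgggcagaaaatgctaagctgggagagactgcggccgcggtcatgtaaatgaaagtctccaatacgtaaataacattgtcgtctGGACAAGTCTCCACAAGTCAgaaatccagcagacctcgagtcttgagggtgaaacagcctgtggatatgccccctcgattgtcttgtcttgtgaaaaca
The MDM2 window holds 2 separate matches, with 2 and 3 mismatches. The match in FAS has 2 mismatches, and those in RPS27L and SESN1 have 3 each.

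MDM2, the p53 inhibitor and p53 target, was measured by 10 probe sets, 8 of them above 0 and 2 below. The brightest, 229711_s_at, read 2152, 2898 and 2856 on the Vamp7 siRNA arrays, against 2698, 2713 and 2366 on the scrambled arrays. The lowest array and the highest were both Vamp7 siRNA arrays, and the groups overlapped. Its log2 difference was 0.013, with an SE of 0.15 (95% interval -0.33 to 0.36, adjusted p = 0.993). It turned to -0.029 when arrays were centred on their medians, and was 0.15 without Vamp7 siRNA replicate 1.

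A second MDM2 probe set, 225160_x_at, read 989.8, 963 and 978 with Vamp7 siRNA, against 944, 819 and 806 with scrambled siRNA. Its 3 Vamp7 siRNA arrays all lay above the 3 scrambled arrays, by 19.4 units at the nearest pair. The difference of 0.18 (SE 0.10, 95% interval -0.06 to 0.43, adjusted p = 0.812) did not pass. The suffix _x_at marks probe sets whose probes may also bind other transcripts. The next, 217542_at, lay the other way, at 136.0, 130.1 and 117 with Vamp7 siRNA, against 129.6, 207 and 156 with scrambled siRNA, a difference of -0.26 (adjusted p = 0.819), which was -0.12 without scrambled siRNA replicate 2. The fourth of at least median signal, 244616_x_at, was the least steady of all 30, at 63.1, 158 and 240.1 with Vamp7 siRNA and 156, 133 and 102 with scrambled siRNA (SE 0.33). The 6 dim MDM2 probe sets ranged from -0.10 to 0.46. The highest difference among the 30 was that of the dim 217373_x_at, at 79.8, 99.6 and 37.6 with Vamp7 siRNA, against 33.3, 24.1 and 55.6 with scrambled siRNA (0.46, SE 0.23, adjusted p = 0.780), where the groups overlapped. The dimmest, 237891_at, read 5.72, 4.44 and 9.11 with Vamp7 siRNA, against 1.33, 2.05 and 1.57 with scrambled siRNA, apart in its groups but far below the median probe set.

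**Figure D3:**
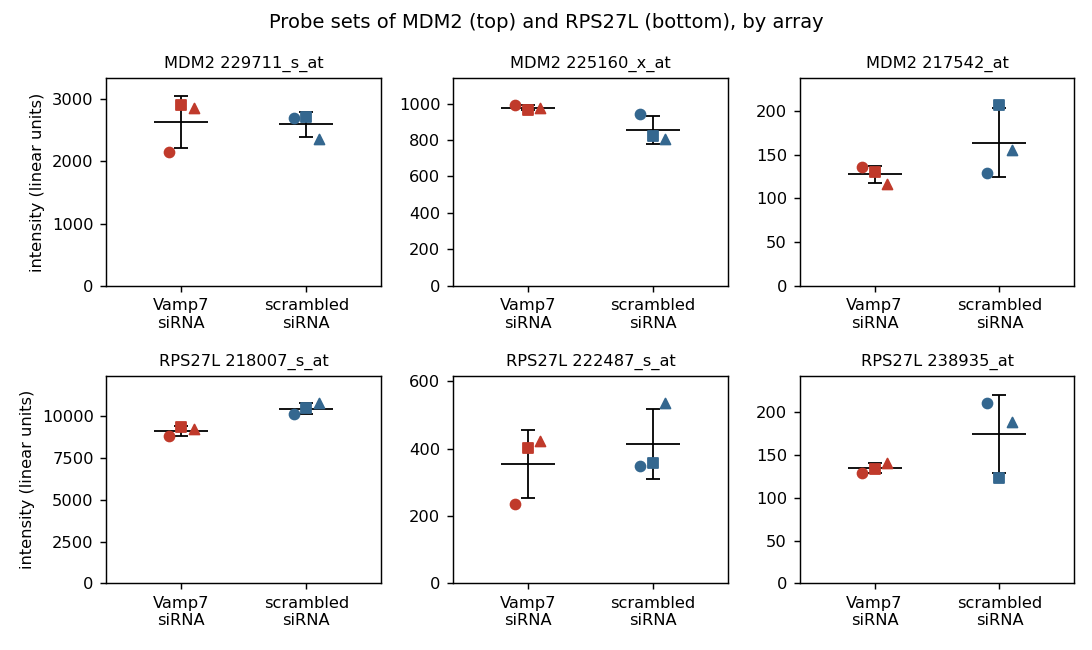
Intensity (linear units) of 3 MDM2 probe sets (top) and the 3 RPS27L probe sets (bottom) on every array, with Vamp7 siRNA left of scrambled siRNA and with the mean and SD of 3 arrays. The MDM2 means lie higher with Vamp7 siRNA for 229711_s_at and 225160_x_at and lower for 217542_at, and all 3 RPS27L means are lower with Vamp7 siRNA, with groups apart for 218007_s_at.

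CDKN1A encodes p21, the inhibitor of cyclin-dependent kinases through which p53 halts the cycle, and had 1 probe set. It read 335, 288 and 208 with Vamp7 siRNA, against 237, 233 and 290.4 with scrambled siRNA. The groups overlapped, with Vamp7 siRNA arrays at both ends. The difference was 0.10 (SE 0.17, 95% interval -0.31 to 0.50, adjusted p = 0.946), and -0.032 without Vamp7 siRNA replicate 1.

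BAX, BBC3 and FAS lead to cell death. BAX, which forms pores in the outer mitochondrial membrane, had 2 probe sets of similar result. The brighter, 211833_s_at, read 1285, 896 and 1013 with Vamp7 siRNA, against 1022, 1149 and 1351 with scrambled siRNA (-0.14, SE 0.17, adjusted p = 0.909). The other, 208478_s_at, read 1051, 995 and 1067 with Vamp7 siRNA, against 1189, 1016 and 1117 with scrambled siRNA (-0.09, SE 0.10, 95% interval -0.33 to 0.16, adjusted p = 0.909). Both overlapped between groups. The first was at -0.030 without Vamp7 siRNA replicate 2 and at -0.28 without replicate 1, so its size rested on single arrays, and the second ran from -0.15 to -0.037 without 1 array. BBC3 encodes PUMA, a BH3-only protein that sets BAX free from its inhibitors. Its probe set, shared with 2 microRNA genes, read 159, 220.3 and 217 with Vamp7 siRNA, against 209, 164 and 148 with scrambled siRNA (0.15, SE 0.16, adjusted p = 0.893), overlapping between the groups.

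FAS, the death receptor for FAS ligand, was read by 5 probe sets that scattered around 0. The brightest, 204780_s_at, gave 115, 194 and 253 with Vamp7 siRNA, against 159.5, 171 and 186 with scrambled siRNA (0.05, SE 0.22, adjusted p = 0.981). All 3 scrambled arrays lay inside the range of the Vamp7 siRNA arrays. The second, 204781_s_at, gave 158, 129 and 120.2 with Vamp7 siRNA, against 106, 150.5 and 158 with scrambled siRNA (-0.01, SE 0.15, adjusted p = 0.993). The smallest unadjusted p of the 30 (0.0301) belonged to the dim FAS probe set 233820_at. It read 13.6, 3.63 and 7.85 with Vamp7 siRNA, against 21.6, 17.6 and 27.1 with scrambled siRNA (-0.31, SE 0.11, adjusted p = 0.732). These values are well under the median probe set, and the 3 brighter FAS probe sets ran from -0.01 to 0.13.

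RRM2B and POLH serve DNA repair. RRM2B is the p53-inducible small subunit of ribonucleotide reductase, which supplies nucleotides outside S phase, and lies on chromosome 8. Its 1 probe set read 469, 614 and 628 with Vamp7 siRNA, against 607, 659.6 and 461 with scrambled siRNA. The means of 570.3 ± 88.2 with Vamp7 siRNA and 576 ± 103 with scrambled siRNA (SD, n = 3 each) differed by far less than the spread between arrays (-0.0096, SE 0.17, 95% interval -0.41 to 0.39, adjusted p = 0.996).

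POLH encodes DNA polymerase eta, which copies past ultraviolet lesions, and its 6 probe sets split evenly, with 3 above 0 and 3 below. The brightest, 233852_at, read 82.1, 97.4 and 126 with Vamp7 siRNA, against 149, 133 and 130.5 with scrambled siRNA. All Vamp7 siRNA arrays lay below all scrambled arrays, the nearest pair 4.88 units apart. The difference of -0.31 (SE 0.13, 95% interval -0.63 to -0.0028) had an unadjusted p of 0.0485 and did not pass after adjustment (0.753). It was -0.22 without Vamp7 siRNA replicate 1 and -0.033 when the 6 probe sets were averaged. The second, 231115_at, leaned the other way, at 72.6, 56.7 and 75.9 with Vamp7 siRNA, against 88.9, 27.3 and 54.8 with scrambled siRNA (0.18, SE 0.21). The other 4 were dim and ranged from -0.34 to 0.39.

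RPS27L, a ribosomal protein paralogue that p53 induces, had 3 probe sets, all with lower means in the Vamp7 siRNA group. The brightest, 218007_s_at, read 8775, 9317 and 9229 with Vamp7 siRNA, against 10078, 10456 and 10753 with scrambled siRNA. The groups stood apart, by 762 units at the nearest pair, and the Vamp7 siRNA mean was 87.3% of the scrambled mean. The difference of -0.19 (SE 0.09, 95% interval -0.42 to 0.03) did not pass (unadjusted p = 0.0781, adjusted p = 0.777). It stayed between -0.24 and -0.17 in all 18 alternatives, of which 1 averaged the 3 RPS27L probe sets (-0.22). The second, 222487_s_at, gave 237, 403 and 423 with Vamp7 siRNA, against 349, 358 and 535 with scrambled siRNA (-0.21, SE 0.24), and turned to 0.019 without Vamp7 siRNA replicate 1. The third, 238935_at, gave 129.6, 133 and 141 with Vamp7 siRNA, against 211, 124 and 189 with scrambled siRNA (-0.26, SE 0.16). RPS27, its constitutive paralogue, read 62884, 43325 and 42715 with Vamp7 siRNA, against 39653, 53885 and 48282 with scrambled siRNA, with groups that overlapped.

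SESN1, a stress-induced inhibitor of mTORC1 signalling, had 1 probe set. It read 429, 328 and 387 with Vamp7 siRNA, against 323, 339 and 416 with scrambled siRNA, in overlapping groups. The difference was 0.08 (SE 0.14, 95% interval -0.25 to 0.40, adjusted p = 0.947) and -0.0024 without Vamp7 siRNA replicate 1.

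The wider pathway was followed in 6 lists, with the brightest probe set that names 1 gene standing for each gene. No gene of these lists passed the adjusted threshold, where 0.00506% of the 19775 genes did. At an unadjusted p under 0.05 the lists held 4 genes in all, where 5.92% of all genes lay (3.29% higher and 2.63% lower). They were 1 of 25 regulators, 1 of 44 other direct targets and 2 of 25 genes of the death machinery. The remaining lists, of 26, 23 and 17 measured genes, held 0. Groups did not overlap for 13% of all genes (6.68% higher and 6.29% lower), 50.8% lay above 0 and 49.2% below, and their median difference was 0.0029. Named below are the 2 genes of smallest p in each list and 2 of high signal.

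Of the regulators of p53, 25 of 28 were measured, 15 above 0 and 10 below, with a median of 0.020 and with 5 genes higher in groups that did not overlap. ATM, the kinase that signals double-strand breaks to p53, read 1281, 1202 and 1199.7 with Vamp7 siRNA, against 1082, 999 and 946 with scrambled siRNA, in groups that stood apart. Its difference was 0.27 (SE 0.10, adjusted p = 0.733), but its 5 other probe sets ranged from -0.20 to 0.11. PPP1R13B, which encodes the p53 cofactor ASPP1, was at 0.29 (adjusted p = 0.754). RPL11, a ribosomal protein that restrains MDM2, averaged 31033 ± 5140.4 with Vamp7 siRNA and 30589 ± 4692 with scrambled siRNA (SD, n = 3 each). TRIM24, a ubiquitin ligase for p53, averaged 5048 ± 74.5 with Vamp7 siRNA and 4829 ± 351 with scrambled siRNA.

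Of 47 other direct targets, 44 were measured, 18 above 0 and 26 below, with a median of -0.027. Groups did not overlap for 6 of them, 3 higher and 3 lower. PIDD1, a death-domain protein that activates caspase-2, read 366, 299 and 328 with Vamp7 siRNA, against 231, 228 and 283 with scrambled siRNA (0.36, SE 0.12, adjusted p = 0.711). A second PIDD1 probe set of like brightness was at 0.05. PPM1D, the phosphatase WIP1 that switches p53 signalling off, read 1041, 1397 and 1519.6 with Vamp7 siRNA, against 1663, 1642 and 1609 with scrambled siRNA (-0.32, SE 0.15, adjusted p = 0.773), and was at -0.16 without Vamp7 siRNA replicate 1. CCNG1, cyclin G1, averaged 16988 ± 1381 with Vamp7 siRNA and 17314 ± 1620.1 with scrambled siRNA. PERP, a desmosomal and apoptotic effector, averaged 9155 ± 252 with Vamp7 siRNA and 9340.0 ± 537 with scrambled siRNA (SD, n = 3 each).

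Genes that p53 lowers through p21 and the DREAM repressor complex gave 12 above 0 and 14 below among 26 measured of 27, with a median of -0.01 and 0 at an unadjusted p under 0.05. RACGAP1, a regulator of cytokinesis, was at 0.22 (adjusted p = 0.775) and MYBL2, a cell cycle transcription factor, at -0.19 (adjusted p = 0.833). UBE2C and CCNB2, which act in mitosis, averaged 12054 ± 184 and 10317 ± 49.5 with Vamp7 siRNA, against 12127 ± 1422 and 10252 ± 219 with scrambled siRNA (SD, n = 3 each). Among the p21 partners and DREAM subunits, all 23 were measured, with 6 above 0 and 17 below and a median of -0.06. Beside cyclins, kinases and DREAM subunits, this list holds CDKN1B, CDKN1C, RB1 and PCNA. The DREAM subunit LIN52 was at -0.21 (adjusted p = 0.816), with a second probe set at -0.41, and TFDP2, a partner of the E2F factors, was at 0.18 (adjusted p = 0.820). CCND2, a D-type cyclin, and CDK4, its kinase, averaged 23507 ± 2859.8 and 15309 ± 52.0 with Vamp7 siRNA, against 22939.6 ± 2591 and 15340.5 ± 1547 with scrambled siRNA.

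In the death machinery around BAX, BBC3 and FAS, 25 of 28 genes were measured, 7 above 0 and 18 below, with a median of -0.05. Its 2 genes at an unadjusted p under 0.05 were both lower. BAK1, the second pore-forming protein beside BAX, read 270.0, 299 and 297 with Vamp7 siRNA, against 337, 392 and 477 with scrambled siRNA, with no overlap (-0.41, SE 0.14, adjusted p = 0.705). BIK, a BH3-only protein, read 234, 437 and 451 with Vamp7 siRNA, against 621, 560.4 and 583 with scrambled siRNA, also with no overlap (-0.63, SE 0.22, adjusted p = 0.723), and was at -0.37 without Vamp7 siRNA replicate 1. Each is measured by 1 probe set that names it alone. Cytochrome c (CYCS) and MCL1, an inhibitor of BAK1, averaged 25630.3 ± 2215 and 14227 ± 954 with Vamp7 siRNA, against 26746 ± 2416 and 13878 ± 1400.0 with scrambled siRNA.

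The partners and paralogues of RRM2B, RPS27L, POLH and SESN1 gave 8 above 0 and 9 below among 17 measured, with a median of -0.02. RAD18, the ligase that calls polymerase eta to stalled forks, read 452, 503 and 469 with Vamp7 siRNA, against 560.4, 563 and 535 with scrambled siRNA (-0.20, SE 0.10, adjusted p = 0.775). MAD2L2, a subunit of polymerase zeta, was at -0.14 (adjusted p = 0.863). PCNA, the sliding clamp of replication, averaged 14107 ± 546 with Vamp7 siRNA and 15681 ± 1947 with scrambled siRNA (SD, n = 3 each).

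**Figure D4:**
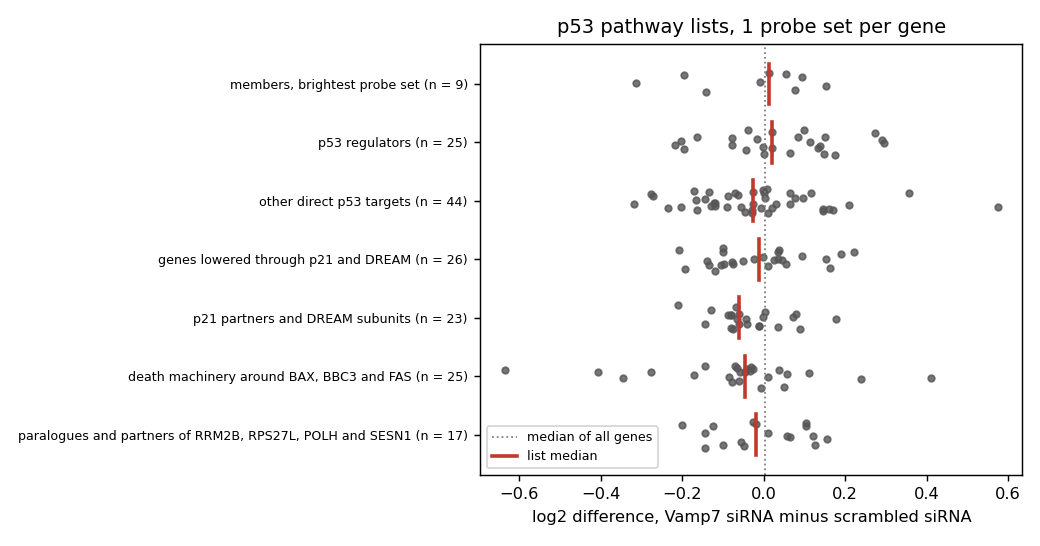
Log2 difference (Vamp7 siRNA minus scrambled siRNA, horizontal axis) of the brightest probe set of each gene in 7 groups of genes of the p53 pathway, 1 point a gene. Red bars are list medians, from -0.06 to 0.02, and the dotted line is the median of all genes at 0.0029.

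The labelled cell type was checked with marker genes. Of 15 embryonal carcinoma markers 14 were measured, all of at least median signal. ZFP42, the dimmest, averaged 80.5 over the 6 arrays, below the 87.1 of CD3E on Vamp7 siRNA replicate 1. LIN28A averaged 34677 ± 6933 with Vamp7 siRNA and 32836 ± 6855 with scrambled siRNA (SD, n = 3 each). CD24 averaged 20974 ± 258 with Vamp7 siRNA and 21581 ± 2465 with scrambled siRNA. The sums below are over the measured genes of each marker list. The summed signal of the 14 embryonal carcinoma markers ran from 122203 to 138321 with Vamp7 siRNA and from 112903 to 139899 with scrambled siRNA. NANOG was at -0.28 (adjusted p = 0.755) and GDF3 at -0.26 (adjusted p = 0.755). All 6 measured leukocyte markers lay below the median probe set, their summed signal running from 168 to 306 with Vamp7 siRNA and from 139 to 222 with scrambled siRNA. CSF1R in that list was at 0.33 (adjusted p = 0.744), LYZ at 0.29 (adjusted p = 0.837). CD3E and ITGAM averaged 64.3 ± 29.8 and 46.4 ± 40.9 with Vamp7 siRNA, against 49.8 ± 15.0 and 66.6 ± 48.5 with scrambled siRNA. The summed signal of 6 endothelial markers ran from 3952 to 4538 with Vamp7 siRNA, above the 3509 to 3747 with scrambled siRNA, with VWF at 0.42 (adjusted p = 0.675; 0.002 on a second, dim probe set) and PECAM1 at 0.34 (adjusted p = 0.787). A second PECAM1 probe set of at least median signal was at -0.33, with groups that did not overlap. TEK and KDR averaged 1362 ± 128 and 1041 ± 116 with Vamp7 siRNA, against 1425 ± 133 and 914 ± 74.4 with scrambled siRNA. The sum over 9 fibroblast markers ran from 4374 to 5374 with Vamp7 siRNA and from 4394 to 4702 with scrambled siRNA, with LUM at -0.32 (adjusted p = 0.766) and POSTN at -0.36 (adjusted p = 0.820). COL1A1 and THY1 averaged 2872 ± 335 and 1292 ± 111 with Vamp7 siRNA, against 2568 ± 234 and 1361 ± 82.0 with scrambled siRNA. Of the 9 fibroblast markers, 4 were of at least median signal, as were 4 of the 6 endothelial and 8 of the 9 neuronal markers. Signal of at least the median was therefore not particular to the embryonal carcinoma markers. The other COL1A1 probe sets were far dimmer, averaging from 23.0 to 354 over the 6 arrays, with differences from 0.22 to 0.70. The sum over 9 neuronal markers ran from 5973 to 6450.4 with Vamp7 siRNA, below the 6578 to 6671 with scrambled siRNA, with NEFL at -0.17 (adjusted p = 0.818) and STMN2 at 0.21 (adjusted p = 0.839). GAP43 and NEFM averaged 1314 ± 359 and 1141 ± 56.6 with Vamp7 siRNA, against 1473 ± 37.2 and 1158 ± 54.6 with scrambled siRNA. Groups did not overlap for 2 of the 14 embryonal carcinoma markers, NANOG and GDF3, both lower, beside 13% of all genes. The same held for 1 of the 6 endothelial markers (VWF, higher) and 1 of the 6 leukocyte markers (CSF1R, higher). It also held for 1 of the 9 neuronal markers (NEFL, lower) and 1 of the 9 fibroblast markers (LUM, lower). Neither the sums nor the part of these shifts in the values of the p53 targets was tested.

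For each gene the most similar profile over the 6 arrays was taken by Pearson's r among genes of at least median signal. The nearest were H4C11 for MDM2 (r = 0.986), MIS18A for CDKN1A (0.982), CHMP4B for BAX (0.997), CREB3L4 for BBC3 (0.984) and TTLL11 for FAS (0.986). They were CEBPA-DT for RRM2B (0.991), SLC49A4 for POLH (0.992), GOLT1B for RPS27L (0.995) and NDRG3 for SESN1 (0.984). No gene of the group was the nearest of another, but BBC3 was not a candidate, since its probe set names several genes. With 6 arrays and 12799 or 12800 candidates, between 77 and 228 genes exceeded an r of 0.9 with each, so each likeness is a description of 6 shared arrays, with no test.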

How the data were processed

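The authors deposited a linear intensity for each probe set on each of 6 human 3' expression arrays. RMA is the tool given by the submitters' processing notes, with no version. It usually yields log2 values, and the software that made these linear values is not known. The intensities had the same trimmed mean on every array (500.07, after leaving out 2% at each end). No background step is stated, and the number of arrays limits precision. Of 54675 probe sets, 62 array controls were left out. Symbols came from the platform annotation, updated by gene identifier (41037 of 41091 matched). An offset of 50 was added before log2, and no detection filter was set. Limma 3.58.1 (R 4.3.3; lmFit, eBayes) compared the groups with Benjamini-Hochberg adjustment, and the code was tested on simulated data. An exact permutation test of 3 against 3 cannot go below 0.1. The members, lists, naming rule and offset were chosen with earlier results of these data known. In each list the 2 genes of smallest p and 2 of highest signal are named. The p53 element was first searched without mismatches, which found it in 0 of 15 member windows and 6 of 35116, and mismatches were then allowed. Alternatives covered dim probe sets, gene summaries, offsets, normalization, eBayes options, array weights, the replicate block and the omission of each array.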

Additional observations from a re-analysis of the deposited data

How the results depend on the processing

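VAMP7 passed in all 18 alternatives (-4.09 to -3.42, adjusted p from 1.28e-06 to 0.0295), and 0 member probe sets passed in any of them, the smallest adjusted p being 0.492 for the dim MDM2 probe set 237891_at at an offset of 1. Over the whole array 1 probe set was called, or 2 genes when probe sets of a gene were averaged and 3 at an offset of 1; it was 1 without any 1 array. Member probe sets at an unadjusted p under 0.05 numbered 2, and 1 with dim probe sets left out, with 1 probe set per gene, with the robust option, with array weights and with the replicate block, 0 with probe sets averaged by gene, and 0 to 2 without 1 array (0 without Vamp7 siRNA replicate 2, 1 without scrambled siRNA replicate 1 or 3). An equal count did not always hold the same probe sets. RPS27L 218007_s_at was among them with an offset of 100 (adjusted p = 0.679 in limma) and with the intensity trend (adjusted p = 0.732). Leaving out 1 array brought in others (adjusted p from 0.694 to 0.820 in limma). MDM2 217373_x_at entered without replicate 3 of either group, and MDM2 217542_at without scrambled siRNA replicate 1. POLH 1557701_s_at entered without Vamp7 siRNA replicate 1, and RPS27L 238935_at without scrambled siRNA replicate 2. Deviations of same-numbered arrays correlated at -0.0098, 0.0069 and -0.017. With 3 arrays in each group, these values do not show whether same-numbered arrays shared a culture or day. The numbers for Vamp7 siRNA come from the titles. With the replicate block, VAMP7 was at -3.71 (adjusted p = 0.0295) and no other call changed. Some differences changed sign. Median centring gave -0.029 for MDM2 229711_s_at, -0.00070 for 205386_s_at and -0.027 for 238733_at, and -0.042 for POLH 222879_s_at. Quantile normalization gave -0.0032 for MDM2 238733_at and -0.0085 for POLH 222879_s_at, which was also at -0.00055 with an offset of 100 and -0.019 with array weights. Array weights turned RRM2B to 0.053. The mean over all probe sets of a gene was -0.047 for FAS, 0.0044 for POSTN and -0.012 for PECAM1, opposite in sign to the brightest probe set alone. Without 1 array each, the ranges that crossed 0 were -0.060 to 0.15 for MDM2 229711_s_at, -0.22 to 0.46 for 244616_x_at, -0.072 to 0.16 for 205386_s_at, -0.13 to 0.13 for 238733_at, -0.15 to 0.19 for 211832_s_at and -0.18 to 0.036 for 205385_at. They were -0.032 to 0.26 for CDKN1A, -0.15 to 0.11 for RRM2B, -0.34 to 0.019 for RPS27L 222487_s_at and -0.0024 to 0.17 for SESN1. For FAS they were -0.14 to 0.29 (204780_s_at), -0.14 to 0.063 (204781_s_at), -0.021 to 0.24 (215719_x_at) and -0.37 to 0.14 (216252_x_at), and for POLH -0.031 to 0.39 (231115_at), -0.24 to 0.13 (219380_x_at) and -0.067 to 0.083 (222879_s_at). The cause of these turns was not tested. Signals near or below the median probe set limit what the dim probe sets can show.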
